A study of Agaricus bisporus with 8 samples.

Results

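The comparison described here is that of day 7 with day 3 after watering was stopped, in mycelium of Agaricus bisporus, the cultivated button mushroom. The strain was H97 of the variety bisporus. The comparison rests on the drought channel of all 8 2-colour arrays of the series, which is 8 of the 16 array channels. The 4 day 7 channels and the 4 day 3 channels were chosen by their labels, with both supplements pooled. The later groups were drought day 7 with plain water (2 arrays) and drought day 7 with 50 µM riboflavin (2 arrays). They were set against drought day 3 with plain water (2 arrays) and drought day 3 with 50 µM riboflavin (2 arrays). All 4 groups had first been irrigated for 3 weeks in closed chambers on hay, and the supplement came with that water. The second channel of each array carried RNA of mycelium that was still irrigated on the same day. Replicate 1 of every group carried the drought RNA in Cy3 and replicate 2 in Cy5. The titles number the replicates of a group, whereas the descriptions list both under 1 biological replicate. The p-values here thus reflect only how far these arrays spread, and that spread may be technical.

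Mycelium is the network of hyphae by which the fungus explores its substrate, breaks it down with secreted enzymes and takes up water. When the substrate dries, hyphae are known to accumulate compatible solutes and to shift between growth, maintenance and respiration. Riboflavin, vitamin B2, is the precursor of the flavin cofactors FMN and FAD, which are used by respiratory complex I and by succinate dehydrogenase among other enzymes.

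Signals in the drought channel were low. The number of probes well above background was 338, 320, 430 and 444 on the day 7 arrays, against 363, 615, 446 and 565 on the day 3 arrays, out of 10413 gene probes. Within each day, values are given throughout in the order water replicate 1, water replicate 2, riboflavin replicate 1, riboflavin replicate 2. The days overlapped, with the 2 highest counts on replicate 2 arrays of day 3. The mean was 383 ± 63 on day 7 and 497 ± 114 on day 3 (SD, n = 4 each), and the exact permutation test gave a two-sided p of 0.114, where 70 splits allow no p below 0.0286. Without water day 3 replicate 1, which had the lowest count of day 3, the difference was -159, with the smallest possible exact permutation p of 0.0286. The splits take no account of dye or supplement, and within each supplement and dye the day 7 count was the lower one. Counting every positive and significant signal turned the direction. There were then 3165, 3323, 4017 and 3403 such probes on day 7, against 3078, 2244, 3208 and 3482 on day 3, a mean difference of 474 (exact permutation p = 0.229). The 3 brightest genes took 56.8%, 87.1%, 56.5% and 86.0% of the summed net signal on day 7, against 72.8%, 65.8%, 66.2% and 88.6% on day 3. The mean share was 71.6 ± 17.3% on day 7 and 73.4 ± 10.6% on day 3 (SD, n = 4 each), with an exact permutation p of 0.943. Water day 3 replicate 2 stood apart, with a median net signal of 37 units against 5 to 22.5 units on the other 7 arrays. On the riboflavin arrays, the drought channel of replicate 1 had a correlation with the irrigated channel of replicate 2 of 0.92 (day 7) and 0.87 (day 3). With the drought channel of replicate 2 it was 0.87 (day 7) and 0.91 (day 3). The irrigated channel of replicate 1 had a correlation of 0.87 (day 7) and 0.91 (day 3) with the drought channel of replicate 2, and of 0.78 (day 7) and 0.76 (day 3) with the irrigated channel of replicate 2. All but the day 3 drought value of replicate 1 go against the labels, and whether the 2 channels of the riboflavin replicate 2 arrays are exchanged was not tested. Some of the results that rest on these arrays are also given without them. The others, among them the counts within riboflavin and the likeness of the supplements, are given with them only. With the other channel of both arrays taken as the drought channel, the comparison of days gave 0 calls and 15 genes at an unadjusted p under 0.05 (11 higher and 4 lower on day 7).

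Of the 10413 probes, 9147 were well above background in no drought channel and 130 in all 8. A probe was tested where it was well above background on both arrays of at least 1 of the 4 groups, which left 411. Among these 411, 152 were well above background on fewer day 7 than day 3 channels and 63 on more. As many as 20 were above background on at least 3 day 3 channels and on no day 7 channel, while 3 showed the opposite. The filter let a probe pass through the day on which it was bright, so these counts describe detection and are no test. The fits below hold the same probes, so the direction of a gene that passed through 1 day alone can be set in part by the filter. In bulk RNA, fewer cells of a type and less RNA per cell cannot be told apart.

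No gene passed an adjusted p under 0.05 in limma's fit of day 7 against day 3, which is 0% of the 411 tested. The smallest adjusted p was 0.213. With a replicate block by supplement and number it was lower, still without a call, as given in the closing section. At an unadjusted p under 0.05, 39 genes (9.49%) differed, 15 of them higher on day 7 (3.65%) and 24 lower (5.84%). The split depended on the scaling, with 0 higher and 38 lower under median scaling, 8 and 27 with processed signals, and 11 and 12 with loess and Aquantile. Leaving out single arrays gave 20 to 34 genes. The median log2 difference over all tested genes was 0.01, and 90% of them lay between -0.60 and 0.40. Of the 410 genes with a value on every array, 48 were higher on day 7 in all 4 pairs of supplement and replicate (11.7%) and 56 were lower in all 4 (13.7%). The day 7 levels lay above all day 3 levels for 6 genes (1.46%) and below them for 6 (1.46%). Of the 70 ways to split the channels 4 against 4, 1 puts all day 7 levels on top and 1 puts them all below. Each share is thus near that of levels without any order by day. The genes described next are those with the smallest p-values or the largest differences.

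**Figure D1:**
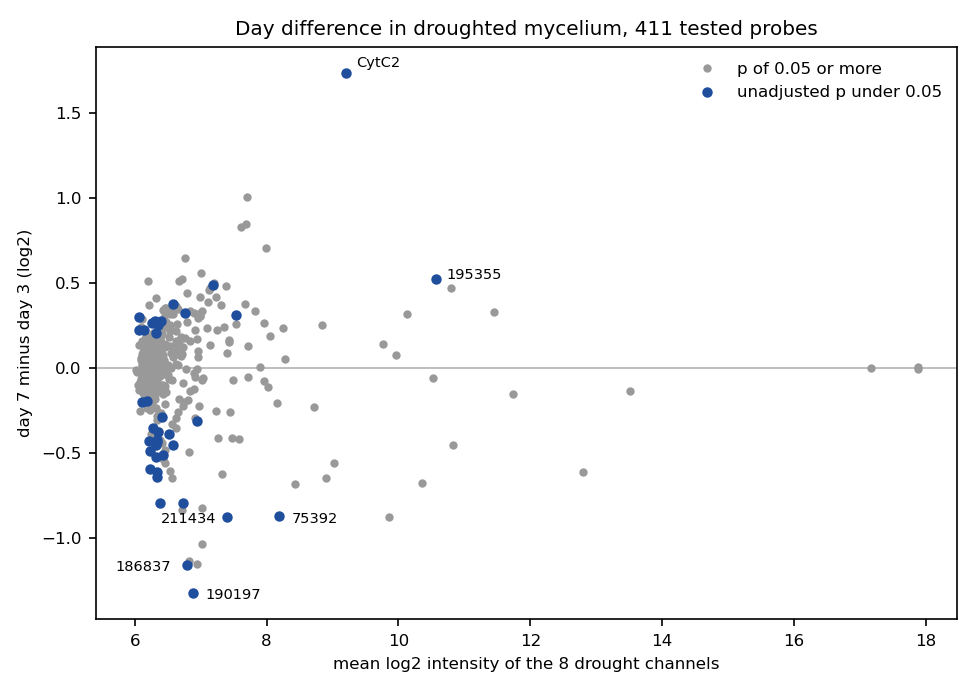
Day 7 minus day 3 log2 difference of each of the 411 tested probes (vertical axis) against its mean log2 intensity over the 8 drought channels (horizontal axis). Blue points have an unadjusted p under 0.05 in limma's fit (39 genes), grey points do not, and labels give the symbol or the number of the locus tag. CytC2 had the largest positive difference (1.74) and AGABI2DRAFT_190197 the largest negative measured one (-1.32), and no point passed the adjusted threshold.

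AGABI2DRAFT_211434 had the smallest p-value and was lower on day 7 in both supplements. Its log2 level was 6.65, 6.70, 7.46 and 7.07 on day 7, against 7.40, 7.46, 8.42 and 8.08 on day 3. Each day 7 channel lay below the day 3 channel of its own supplement and replicate number, although the riboflavin day 7 levels overlapped the water day 3 levels. The pairs differed by -0.76, -0.76, -0.96 and -1.02. The mean was 6.97 ± 0.38 on day 7 and 7.84 ± 0.49 on day 3 (SD, n = 4 each), a 1.83-fold lower level (log2 difference -0.87 ± 0.12 SE, limma, adjusted p = 0.213). In the irrigated channel of the same arrays the day difference was -0.18 ± 0.11. The drought over irrigated ratio differed by -0.78 ± 0.24 between days (limma, adjusted p = 0.659). Its log2 ratios were 0.21, 0.30, 1.11 and 0.23 on day 7, against 0.72, 1.31, 1.48 and 1.44 on day 3, so drought lay above irrigated on all 8 arrays. Without both riboflavin replicate 2 arrays the drought-channel difference was -0.82, and with their other channel it was -0.57.

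AGABI2DRAFT_67862 and AGABI2DRAFT_121851 had the next smallest p-values. The log2 level of AGABI2DRAFT_67862 was 5.98, 6.05, 6.80 and 6.54 on day 7, against 7.12, 6.28, 7.77 and 7.38 on day 3. The level of AGABI2DRAFT_121851 was 6.01, 6.04, 6.82 and 6.55 on day 7, against 6.38, 6.35, 7.31 and 7.18 on day 3. For both genes, neither water day 7 channel was well above background, whereas all 4 day 3 channels were. The differences were -0.79 ± 0.16 for AGABI2DRAFT_67862 and -0.45 ± 0.09 for AGABI2DRAFT_121851, both with an adjusted p of 0.494 in limma. These 2 genes were also the tested genes whose levels over the 8 drought channels were most like those of AGABI2DRAFT_211434, with Pearson correlations of 0.92 and 0.93. The channels share day, supplement and dye, so these correlations are a description.

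AGABI2DRAFT_190197 and AGABI2DRAFT_186837 had large negative measured differences and were above background on all 4 day 3 channels. As 3 of 4 day 7 channels were not well above background, the size of these differences is not exact. Both genes passed the filter through day 3 alone, so their rank and direction are a description. They were singled out after their values were seen, because they alone passed the threshold with the scanner software's processed signals. The log2 level of AGABI2DRAFT_190197 was 6.0, 5.95, 7.07 and 5.85 on day 7, against 6.81, 6.59, 8.06 and 8.69 on day 3. That of AGABI2DRAFT_186837 was 5.95, 6.11, 6.98 and 5.78 on day 7, against 6.75, 6.54, 7.83 and 8.34 on day 3. On day 7 both were above background on riboflavin replicate 1 alone, and that channel overlapped the water day 3 channels. The highest levels were those of riboflavin day 3. The 2 genes correlated at 0.997 over the 8 channels. The differences were -1.32 ± 0.38 and -1.16 ± 0.36 (limma, adjusted p = 0.505 for both). With processed signals they were -4.12 (adjusted p = 0.0155) and -3.85 (adjusted p = 0.0399). Without both riboflavin replicate 2 arrays they were -0.81 and -0.69, and with the other channel of those arrays -0.48 and -0.44. Split by supplement, AGABI2DRAFT_190197 differed by -1.92 ± 0.45 with riboflavin and by -0.73 ± 0.45 with water, and the supplements differed by -1.19 ± 0.64 (limma, adjusted p = 0.997). In the irrigated channel, levels of AGABI2DRAFT_190197 stayed between 5.87 and 6.55.

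AGABI2DRAFT_75392 was brighter and was measured well above background in all 8 channels. Its log2 level was 8.28, 6.79, 8.38 and 7.58 on day 7, against 9.08, 7.51, 9.12 and 8.80 on day 3. All 4 pairs differed the same way, by -0.80, -0.73, -0.73 and -1.22, while the dyes lay further apart than the days in water. The difference was -0.87 ± 0.23 (limma, adjusted p = 0.505). The drought over irrigated ratio differed by -0.60 ± 0.57 (limma, adjusted p = 0.789), and the irrigated channel by -0.36 ± 0.46. Without both riboflavin replicate 2 arrays the ratio differed by -0.18 ± 0.20 (limma, adjusted p = 0.729).

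**Figure D2:**
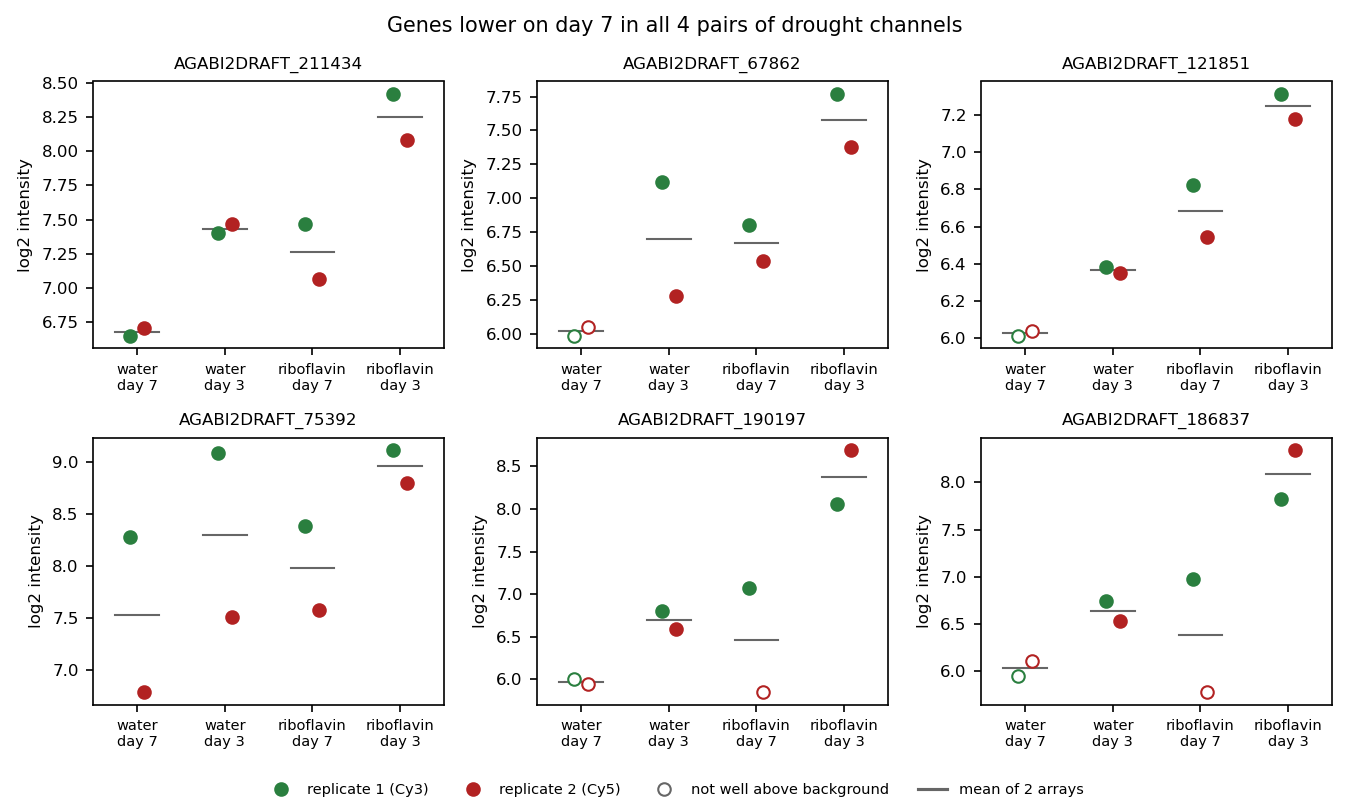
Log2 intensity in the drought channel (vertical axis, a separate scale for each gene) of 6 genes by supplement and day (horizontal axis), 1 point per array. Green points are replicate 1 (Cy3), red points replicate 2 (Cy5), open points were not well above background, and grey lines are means of 2 arrays. Every same-colour pair had its day 7 point below its day 3 point. For AGABI2DRAFT_211434 the 4 differences lay between -0.76 and -1.02.

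AGABI2DRAFT_189526 was one of the 6 genes whose day 7 levels all lay below the day 3 levels. Its log2 level was 6.93, 6.78, 6.79 and 6.64 on day 7, against 7.11, 7.30, 7.02 and 6.96 on day 3. The gap between the highest day 7 and the lowest day 3 channel was small. The difference was -0.31 ± 0.09 (limma, adjusted p = 0.505). In the irrigated channel the difference ran the other way, 0.44 ± 0.09 (limma, adjusted p = 0.710), and the drought over irrigated ratio differed by -0.68 ± 0.21 (limma, adjusted p = 0.659). No tested gene had a smaller p-value in the irrigated channel.

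A second group of lower genes was dim in droughted mycelium and bright in irrigated mycelium watered without riboflavin. It held AGABI2DRAFT_194860, AGABI2DRAFT_115378 and AGABI2DRAFT_123048, which were among the 8 smallest p-values, and AGABI2DRAFT_121746. All but AGABI2DRAFT_194860 were above background on no day 7 channel and so passed the filter through day 3 alone. Their rank by p and their direction are thus a description. The drought-channel level of AGABI2DRAFT_123048 was 6.13, 5.92, 6.04 and 5.99 on day 7, against 7.20, 6.42, 6.86 and 6.16 on day 3. None of its day 7 channels was well above background and 3 of 4 day 3 channels were (measured difference -0.64 ± 0.16, limma, adjusted p = 0.505). With its day 7 signals raised to the lowest that counted as above background, the day 7 mean was 1.55-fold below the day 3 mean. The corresponding values were 1.46-fold for AGABI2DRAFT_115378 and 1.67-fold for AGABI2DRAFT_121746. Such a value takes, for each day 7 array, the lowest signal among probes well above background or the gene's own signal, whichever was higher. It takes the day 3 mean as measured and leaves out the spread between arrays, so it is no lower limit on the change. The 4 pairs of AGABI2DRAFT_123048 differed by -1.07, -0.50, -0.82 and -0.17. AGABI2DRAFT_194860 had 2 of 4 day 7 channels above background and a difference of -0.61 ± 0.15. The 4 genes correlated with each other at 0.97 to 0.99 over the 8 drought channels.

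The irrigated channel of these 4 genes showed no such order of days. AGABI2DRAFT_123048 had irrigated levels of 10.12, 9.58, 7.33 and 5.97 on day 7, against 8.14, 11.73, 7.33 and 6.02 on day 3. Water arrays were high and riboflavin arrays low, and the days overlapped within each supplement. The irrigated day difference was -0.06 ± 0.88, and that of the ratio -0.06 ± 1.06 (limma, adjusted p = 0.985). The day difference of this group is thus seen in the drought channel and is not resolved against the irrigated channel.

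**Figure D3:**
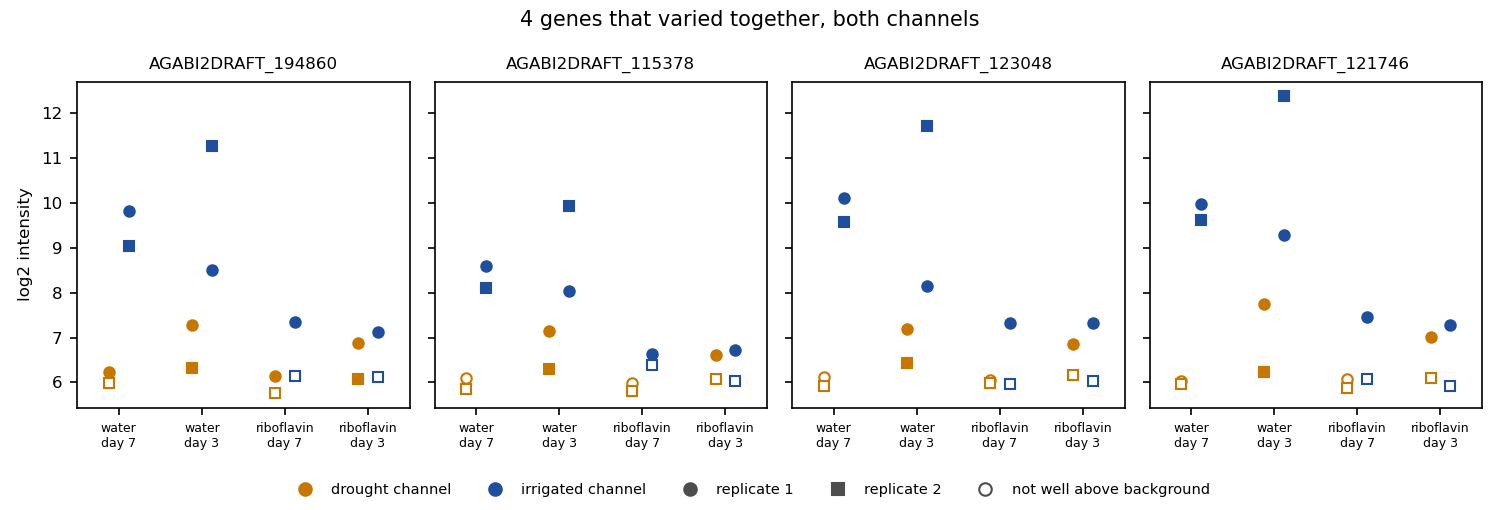
Log2 intensity (vertical axis, common scale) of 4 genes in the drought channel (orange) and the irrigated channel (blue) of each array, by supplement and day (horizontal axis). Circles are replicate 1, squares replicate 2, and open symbols were not well above background. Drought-channel points of day 7 lay between 5.77 and 6.23, each below its day 3 partner, while irrigated water points reached 12.38 on day 3.

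Several of the largest negative differences rested on 1 array. AGABI2DRAFT_195164 had log2 levels of 6.22, 6.43, 6.32 and 6.52 on day 7, against 6.22, 10.86, 6.17 and 6.84 on day 3. Only water day 3 replicate 2 was high. AGABI2DRAFT_188048, AGABI2DRAFT_139015 and AGABI2DRAFT_191519 had the same pattern, with 10.20, 9.48 and 9.72 on that array. Their pooled differences were -1.15 ± 0.91, -1.03 ± 0.68, -0.83 ± 0.64 and -0.82 ± 0.70 (limma, adjusted p = 0.685 for the 4 genes). Without water day 3 replicate 2 they were -0.08, -0.23, -0.09 and -0.01. The 4 genes correlated at 0.94 to 0.996 over the 8 channels. Of 23 genes whose highest channel exceeded the next by more than 1 log2 unit, 12 were highest on that array, whose median net signal was the highest, as given above. The part of that array's signal in these values was not tested. In AGABI2DRAFT_75571 the level lay between 8.78 and 9.81 on day 7, against 9.49 to 11.68 on day 3. All 4 pairs were lower and the riboflavin replicate 2 pair the most (-2.23), and the difference was -0.88 ± 0.45 (limma, adjusted p = 0.685). Without both riboflavin replicate 2 arrays it was -0.43.

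CytC2, whose symbol denotes cytochrome c, the soluble carrier that passes electrons from complex III to cytochrome c oxidase, had the largest positive difference. Its log2 level was 10.35, 9.64, 9.0 and 11.31 on day 7, against 9.03, 7.78, 8.86 and 7.68 on day 3. All 4 pairs were higher on day 7, by 1.32, 1.86, 0.14 and 3.63, and the days overlapped only through riboflavin day 7 replicate 1, which lay just below water day 3 replicate 1. The mean was 10.07 ± 0.99 on day 7 and 8.34 ± 0.71 on day 3 (SD, n = 4 each), a 3.33-fold higher level. The log2 difference was 1.74 ± 0.63 (SE), with an unadjusted p of 0.0351 and an adjusted p of 0.505 in limma. The difference was 1.88 ± 0.98 with riboflavin, where it was 0.14 without both replicate 2 arrays, and 1.59 ± 0.98 with water. The irrigated channel differed by 0.37 ± 0.36, and the drought over irrigated ratio by 1.22 ± 0.78 (limma, adjusted p = 0.731). Without both riboflavin replicate 2 arrays the ratio differed by 0.49 ± 0.21 (limma, adjusted p = 0.567). The drought-channel difference was 1.11 without both riboflavin replicate 2 arrays, was 1.02 with their other channel, and lay between 1.07 and 2.33 when single arrays were left out.

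Most of the other respiratory chain genes with a symbol were not detected, and neither were most probes of the array. Over all genes with a symbol, 11 of 88 probes (12.5%) were well above background in at least 1 drought channel, close to the 1266 of 10413 (12.2%) over the whole array. Succinate dehydrogenase passes electrons from succinate to ubiquinone. SDH1, its flavoprotein subunit, had log2 levels of 6.69, 7.29, 7.38 and 7.06 on day 7, against 6.73, 6.33, 7.51 and 6.66 on day 3. SDH2, its iron-sulfur subunit, had 6.72, 6.15, 6.27 and 6.03 on day 7, against 6.29, 6.09, 6.10 and 6.18 on day 3. The days overlapped for both, with differences of 0.29 ± 0.24 (limma, adjusted p = 0.685) and 0.13 ± 0.13 (adjusted p = 0.738). NdufA1, an accessory subunit of complex I, had 6.89, 6.0, 6.11 and 6.07 on day 7, against 6.45, 5.92, 6.80 and 6.41 on day 3. It was higher on day 7 in both water pairs and lower in both riboflavin pairs, with a pooled difference of -0.13 ± 0.22 (adjusted p = 0.842) and a supplement difference of -0.77 ± 0.32 (adjusted p = 0.997). SDH2 was above background on 3 channels of each day, and NdufA1 on 2 of day 7 and 3 of day 3.

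Counted by complex, from lists of symbols drawn up after the files were seen, complex I had 24 probes, of which 6 were above background in any drought channel and 1 was tested. Over the whole array the share above background in any drought channel was 12.2%, and no list was tested against it. Succinate dehydrogenase had 5 probes, with 2 detected and both tested. Complex III with cytochrome c had 7 probes, and CytC2 was the 1 detected. None of the 5 probes of cytochrome c oxidase, the 11 of ATP synthase or the 7 of laccases and manganese peroxidase, the enzymes that attack lignin, was above background in any drought channel. Of the 5 heat shock genes with a symbol, hspE alone was detected, on 1 day 3 channel and no day 7 channel. NdufS6, NdufV2 and NdufB9 of complex I were above background on 2, 1 and 1 day 7 channels and on no day 3 channel. NdufS7, NUZM and SKN7, which in yeast is a regulator of the oxidative stress response, were above it on 1 day 3 channel each and on no day 7 channel. For genes seen on so few channels no day difference can be given.

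Other genes with large positive differences spread more widely. AGABI2DRAFT_195355 was the brightest of them and had an unadjusted p of 0.0356. Its log2 level was 11.68, 9.30, 12.32 and 10.02 on day 7, against 10.55, 8.93, 11.68 and 10.05 on day 3. Cy3 channels were higher than Cy5 channels on both days, and 3 of 4 pairs were higher on day 7, with a difference of 0.53 ± 0.19 (limma, adjusted p = 0.505). AGABI2DRAFT_194064 had 7.14, 8.53, 8.08 and 8.34 on day 7, against 7.55, 6.74, 7.46 and 7.01 on day 3. Only water day 7 replicate 1 lay among the day 3 levels, and the difference was 0.83 ± 0.37 (limma, adjusted p = 0.567). In the ratio to irrigated mycelium AGABI2DRAFT_194064 differed by 1.24 ± 0.30 (limma, adjusted p = 0.659), and in the irrigated channel by -0.39 ± 0.09.

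AGABI2DRAFT_116785 had levels of 8.09, 8.58, 7.14 and 9.57 on day 7, against 7.81, 7.14, 7.06 and 8.53 on day 3, a difference of 0.71 ± 0.50. All its pairs were higher on day 7, but the spread between arrays of a day exceeded the difference. AGABI2DRAFT_64309 had 7.15, 10.46, 8.76 and 6.45 on day 7, against 6.59, 7.83, 8.27 and 6.11 on day 3, a difference of 1.00 ± 1.03. Water replicate 2 gave 2.63 of log2 difference and the other pairs 0.34 to 0.55. The same pair gave the largest difference for AGABI2DRAFT_133168 (2.88, pooled 0.85 ± 0.64), AGABI2DRAFT_186655 (2.23, pooled 0.65 ± 0.52) and AGABI2DRAFT_190737 (1.97, pooled 0.56 ± 0.42). The adjusted p of these genes lay between 0.685 and 0.738 in limma.

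**Figure D4:**
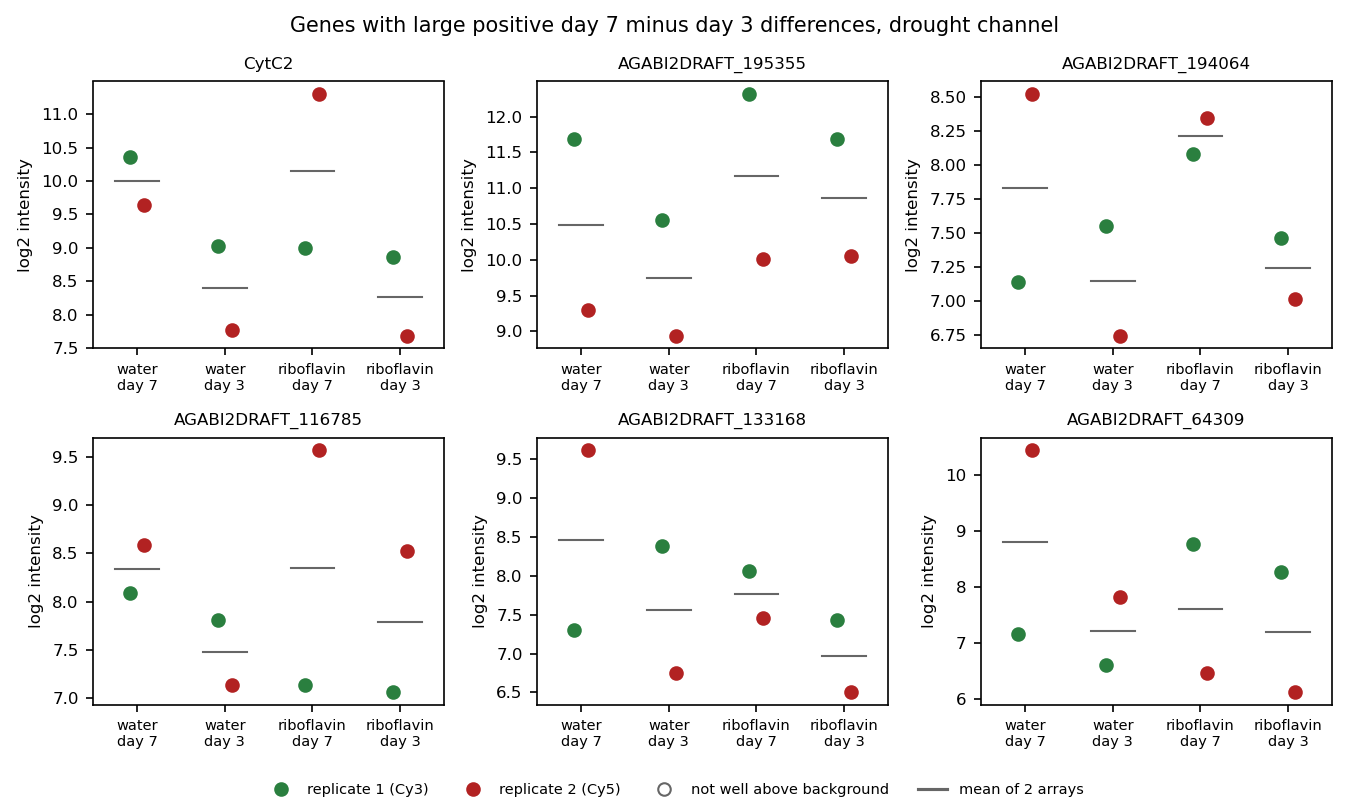
Log2 intensity in the drought channel (vertical axis, a separate scale for each gene) of 6 genes with positive day differences, by supplement and day (horizontal axis), 1 point per array. Green points are replicate 1 (Cy3), red points replicate 2 (Cy5), and grey lines are means of 2 arrays. CytC2 was higher on day 7 in all 4 pairs, and AGABI2DRAFT_64309 owed most of its difference to water replicate 2.

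Day 7 lay above day 3 without overlap, by small amounts, in 5 genes and in 1 probe that matched no locus tag. As the share of such genes was near that of levels without any order by day, they are listed as a description. They were AGABI2DRAFT_114417 (0.26 ± 0.08), AGABI2DRAFT_121197 (0.18 ± 0.08), AGABI2DRAFT_152018 (0.23 ± 0.08), AGABI2DRAFT_193032 (0.23 ± 0.07), AGABI2DRAFT_194585 (0.15 ± 0.08) and the probe numbered 133096 (0.28 ± 0.08). AGABI2DRAFT_193032 was above background on 2 day 7 channels and on no day 3 channel. AGABI2DRAFT_180108 (-0.19 ± 0.07), AGABI2DRAFT_185824 (-0.18 ± 0.09) and AGABI2DRAFT_187783 (-0.48 ± 0.21) lay below without overlap. Their adjusted p in limma lay between 0.505 and 0.685. All of these genes had mean levels under 6.71, near the dimmest signals that counted as above background (5.76 to 6.11 by array), where the offset of the background correction compresses differences.

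The 3 brightest genes give no day difference by the normalization used. AGABI2DRAFT_75870 and AGABI2DRAFT_75612 lay between 17.87 and 17.89 in all 8 channels, and AGABI2DRAFT_187811 at 17.17. Quantile normalization gives the same value to the same rank in each channel, so a gene that holds its rank holds its level. Scaled by the channel medians instead, AGABI2DRAFT_75612 differed by -0.45 and AGABI2DRAFT_187811 by -0.50. AGABI2DRAFT_191238 had 14.01, 13.46, 14.01 and 12.32 on day 7, against 14.01, 13.46, 14.01 and 12.87 on day 3. It thus held the same value on both days except on the riboflavin replicate 2 arrays, with a difference of -0.14 ± 0.22 (limma, adjusted p = 0.841). AGABI2DRAFT_76138 had 12.87, 12.08, 11.61 and 13.42 on day 7, against 12.68, 13.42, 12.32 and 14.01 on day 3, a difference of -0.61 ± 0.44 (limma, adjusted p = 0.685).

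Within each supplement, day 7 against day 3 rested on 2 arrays a day and a spread shared by all 8 channels. With riboflavin no gene was called (0% of 411, smallest adjusted p = 1 in limma), and 16 genes (3.89%) passed 0.05 before adjustment, of which 3 were higher (0.73%) and 13 lower (3.16%) on day 7. With water no gene was called either (0%, smallest adjusted p = 0.683 in limma), and the 16 genes (3.89%) that passed before adjustment split into 10 higher (2.43%) and 6 lower (1.46%). Without water day 3 replicate 1, which leaves water day 3 replicate 2 as the lone array of its group, 9 genes were called with water, all lower on day 7. They included AGABI2DRAFT_195164, AGABI2DRAFT_188048, AGABI2DRAFT_139015 and AGABI2DRAFT_191519, which were high on that array. Across the 411 genes the 2 sets of differences correlated at 0.37 (Pearson) and 0.39 (Spearman). They shared their sign in 251 genes (61.1%), 131 higher and 120 lower in both. Genes are not independent replicates, and both sets come from channels normalized together, so these values are a description.

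The difference between supplements of the day difference also gave no call (0% of 411, smallest adjusted p = 0.491 in limma), with 4 genes at an unadjusted p under 0.05 (0.973%), or 1 to 32 when single arrays were left out. Without water day 3 replicate 1 it called 3 genes, AGABI2DRAFT_139015, AGABI2DRAFT_195164 and AGABI2DRAFT_229385, each with an adjusted p of 0.0442 in limma. With all arrays, the smallest p was that of AGABI2DRAFT_121457, with a supplement difference of -1.45 ± 0.20. It differed between days by 0.95 ± 0.14 with water and by -0.50 ± 0.14 with riboflavin. The genes described next were picked by the size of the difference and not by p. AGABI2DRAFT_113897 had levels of 9.98 and 11.58 with riboflavin on day 7, against 9.77 and 11.43 on day 3, and 9.27 and 9.27 with water on day 7, against 11.18 and 10.43 on day 3. It was lower on day 7 with water (-1.53 ± 0.70) and differed by 0.18 ± 0.70 with riboflavin, and the supplements differed by 1.71 ± 0.99 (adjusted p = 0.997). AGABI2DRAFT_114522 differed by -0.62 ± 0.86 with riboflavin and by 1.46 ± 0.86 with water. Its water value came from replicate 1 alone, with 9.57 on day 7 against 6.64 on day 3, while replicate 2 had 6.48 and 6.49. AGABI2DRAFT_192459 differed by -1.28 ± 0.99 with riboflavin, where replicate 2 had 6.76 on day 7 against 9.04 on day 3, and by 0.03 ± 0.99 with water. Without both riboflavin replicate 2 arrays its riboflavin difference was -0.29. AGABI2DRAFT_193554 was high on the water arrays of replicate 1, 11.43 on day 7 against 9.57 on day 3. Its riboflavin replicate 2 pair differed by -2.31, with a day 7 level of at most 7.10, so that day 3 channel was high as well. Its supplement difference of -1.47 ± 2.44 was -0.0048 without both riboflavin replicate 2 arrays.

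**Figure D5:**
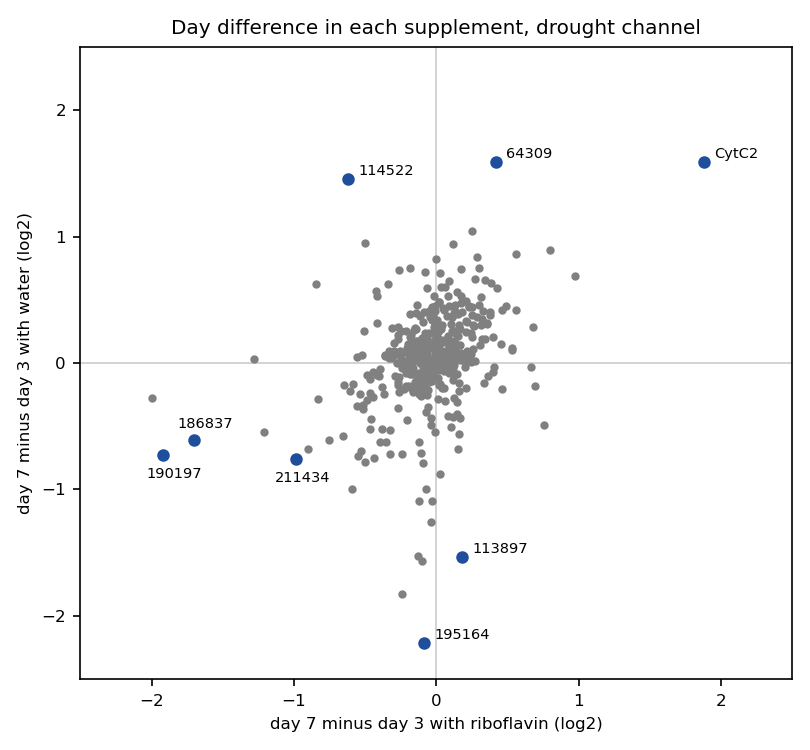
Day 7 minus day 3 log2 difference with water (vertical axis) against the same difference with riboflavin (horizontal axis) for the 411 tested probes, 1 point per probe, with named genes in blue. CytC2 lay at 1.88 with riboflavin and 1.59 with water, AGABI2DRAFT_211434 at -0.99 and -0.76, and AGABI2DRAFT_195164 was far from 0 with water alone.

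Set against the irrigated channel of the same arrays, the day difference gave no call either (0% of 411, smallest adjusted p = 0.659 in limma). At an unadjusted p under 0.05 there were 22 genes (5.35%), 11 with a higher (2.68%) and 11 with a lower (2.68%) drought over irrigated ratio on day 7. Among the genes named above, the ratio difference exceeded 3 standard errors, in the direction of the drought channel, for AGABI2DRAFT_194064 (1.24 ± 0.30), AGABI2DRAFT_194585 (0.40 ± 0.13), AGABI2DRAFT_75571 (-1.16 ± 0.35), AGABI2DRAFT_211434 (-0.78 ± 0.24) and AGABI2DRAFT_189526 (-0.68 ± 0.21). Each had an adjusted p of 0.659 in limma. Without both riboflavin replicate 2 arrays these differences were 1.25, 0.45, -1.22, -0.63 and -0.69, in the same order of genes (adjusted p of 0.469 to 0.509 in limma). The irrigated channels were themselves of day 7 and day 3, so this comparison takes out what both channels share between days. The ratio also takes in what the irrigated channel alone changed. The irrigated day difference was opposite in sign for AGABI2DRAFT_194064 (-0.39 ± 0.09), AGABI2DRAFT_194585 (-0.25 ± 0.08), AGABI2DRAFT_75571 (0.69 ± 0.43) and AGABI2DRAFT_189526 (0.44 ± 0.09). For AGABI2DRAFT_211434 it had the same sign (-0.18 ± 0.11). The genes were named by the drought channel, which the ratio contains, so a shared direction is no separate support.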

How the data were processed

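Each of the 8 arrays carried RNA of droughted mycelium in 1 dye and of irrigated mycelium in the other. Per the file headers, Agilent's Feature Extraction software (version 11.5.1.1) wrote the deposited scanner tables, which hold median spot and background intensity values in both channels. The deposited processed intensity values had been background-subtracted and dye-normalized by that software, per the file headers. The deposited log10 ratio of red over green, per the file headers, served to settle the direction. The authors' deposited table of log2 ratios correlated at 0.957 to 0.990 with the ratios computed here and had column medians of -0.00308 to 0.00615. The submitters' processing notes name limma.

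Drought-channel median signals were corrected with normexp (offset 50), quantile-normalized over the 8 channels and averaged by gene number (15208 gene spots, 10413 probes, 4795 of them with several spots), in limma 3.58.1 under R 4.3.3. Outlier spots (0 to 3 per drought channel) and control spots were left out, and no gene spot was saturated. The irrigated channels were treated alike and separately. Log2 levels were fitted with lmFit and eBayes on day, supplement and dye, which is the replicate number. Within supplements 1 term per group and dye were used. Ratios were loess-normalized. One tested gene lacked a value on water day 3 replicate 1 and was fitted without it. Calls needed a Benjamini-Hochberg adjusted p under 0.05 over 411 probes. Errors on differences are limma standard errors. The number of arrays limits the precision. The fits were tested on simulated data with 1 small spread for all genes. The real spread was larger for many genes, so that test does not show the power of these fits.

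Gene numbers matched locus tags of Agabi_varbisH97_2 for 10348 probes, and 88 had a symbol. That table has no descriptions, so lists by function could not be formed beyond symbols. The members, genes and lists were chosen with earlier results of these data known. Named genes are the 8 largest differences each way among probes above background on at least 6 of 8 channels, the 8 smallest p-values, the 5 brightest, those with a symbol, and the 2 largest each way per supplement and for their difference. Genes without overlap between days and the 2 called with processed signals were added after their values were seen. Alternatives covered normalization, signal, offset, filter, dye and pairing terms, and each array left out. Using the irrigated channel of the riboflavin replicate 2 arrays, or leaving both out, was chosen after seeing the data. All arrays lay on 1 slide and were scanned once, so neither is a batch. The numbers in the array names run by supplement and day, with the earlier day first. If they give the place on the slide, place cannot be told apart from day or supplement.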

Additional observations from a re-analysis of the deposited data

Results flagged for a closer look

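Of 96 groups of 4 channels (1 named gene or 1 array-level measure on 1 day), 14 had 1 channel far from the other 3 by Dixon's test. Chance gives this in about 1 of 20 groups, but the genes were named from these same values. That rate therefore does not apply, and the number flagged is a description. Water day 3 replicate 2 held 4 of these values. AGABI2DRAFT_195164 reached 10.86 there (log2 level) against at most 6.84 on the other day 3 channels, AGABI2DRAFT_139015 reached 9.48 against 6.46, AGABI2DRAFT_191519 reached 9.72 against 6.74, and AGABI2DRAFT_185824 reached 6.47 against 6.28. Water day 7 replicate 1 held 3. AGABI2DRAFT_193554 reached 11.43 there against at most 7.10 on the other day 7 channels, AGABI2DRAFT_114522 reached 9.57 against 6.92, and NdufA1 reached 6.89 against 6.11. AGABI2DRAFT_190197 was at 7.07 on riboflavin day 7 replicate 1 against at most 6.0 on the other day 7 channels. AGABI2DRAFT_114417 was at 6.33 on water day 3 replicate 1 against 6.20 on the other day 3 channels.

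The other 5 values belong to the 3 brightest genes, whose levels the quantile normalization sets by rank, and differ from the rest by 0.02 or less. They are the day 7 and day 3 levels of AGABI2DRAFT_187811 (17.17 on both days), the day 7 and day 3 levels of AGABI2DRAFT_75870 (17.87 on both days), and the day 3 level of AGABI2DRAFT_75612 (17.88).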

How the results depend on the processing

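No gene was called in the pooled comparison under any alternative but the processed signals, which called 2, both lower on day 7 (AGABI2DRAFT_190197 at -4.12, AGABI2DRAFT_186837 at -3.85). Genes past an unadjusted p of 0.05 numbered 39 (15 higher, 24 lower) as reported, 38 (0 and 38) with median scaling, 35 (8 and 27) with processed signals, 23 (11 and 12) with loess and Aquantile, 537 of 10413 without the filter, 17 of 204 with the stricter one, 15 with the irrigated channel on the riboflavin replicate 2 arrays, 24 without those arrays, and 20 to 34 without single arrays. For the ratio they numbered 22 (11 and 11) as reported, 33 (6 and 27) with median centring and 25 (9 and 16) with the deposited ratios. Within water, leaving out single arrays gave 0 to 9 calls, the 9 without water day 3 replicate 1, all lower on day 7, with water day 3 replicate 2 as the lone day 3 array assumed to vary like the other groups. For the supplement difference it gave 0 to 3, again without water day 3 replicate 1. Genes past an unadjusted p of 0.05 then numbered 9 to 44 within water (16 as reported), 9 to 18 within riboflavin (16), 1 to 32 for the supplement difference (4) and 12 to 31 for the ratio (22).

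Same-numbered channels deviated together by a correlation of 0.68 in riboflavin and 0.23 in water but by -0.24 to 0.13 between supplements, and 6 of 8 channels were most like their own number on the other day. The main fits hold the number only as the dye term, which is shared by the 4 groups, and have no term for pairs within a supplement. The pairs described above are arrays of the same supplement and dye. With the replicate block by supplement and number, 0 genes were called, 41 had an unadjusted p under 0.05 and the smallest adjusted p was 0.0873. For the ratio, 54 did. Without the dye term 25 did.

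The difference in detected probes was -114 as reported, -159 to -75 without single arrays (exact permutation p = 0.0286, the smallest possible, without water day 3 replicate 1), and 474 when any positive significant signal counted. That of the 3 genes' share was -6.93 to 3.30 percentage points. Signs turned for AGABI2DRAFT_75612 (-0.48 with Aquantile, -0.45 with median scaling, -0.61 with processed signals), AGABI2DRAFT_187811 (-0.50, -0.50 and -0.63, and -0.00040 to 0.00071 without single arrays), AGABI2DRAFT_191238 (0.13 with median scaling, 0.086 with processed signals, 5.0e-05 without both riboflavin replicate 2 arrays, -0.28 to 0.074 without single arrays), AGABI2DRAFT_75870 (0.080 with the irrigated channel on riboflavin replicate 2) and, without single arrays, NdufA1 (-0.33 to 0.075), AGABI2DRAFT_64309 in water (-0.60 to 3.79), and the supplement differences of AGABI2DRAFT_195164 (-0.016 to 4.26) and AGABI2DRAFT_193554 (-3.91 to 0.98). Other than where an array is left out, the cause was not tested. Of 773 recomputed values, 750 kept their direction and side of the threshold. Signal near background limits most genes.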
